A study of Coptotermes formosanus x Coptotermes gestroi and Coptotermes formosanus and Coptotermes gestroi with 67 samples.

Results

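In worker termites from crosses between Coptotermes formosanus and Coptotermes gestroi, 21 of 15950 genes stood outside the range of both parental species in both hybrids, in body and head and at every molting stage sampled. Of these, 16 stood above the higher parent and 5 below the lower parent. The genes were picked on these same values. For each gene, CPM plus 1 (CPM is the count as a share of the column total, scaled so that each profile has the same sum, with missing values read as 0) was compared in 6 sets of tissue and stage. A gene was kept if both hybrids lay on the same outer side of both parents in all 6 sets. In addition, the nearer hybrid over the nearer parent, as a geometric mean over the 6 sets, had to be at most 0.8 on the lower side, or at least the inverse of 0.8 on the upper side. This mean is called the ratio below. Hybrid against parent values are therefore given as a description, without a test.

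Workers of Hybrid G and Hybrid F, the 2 crosses between species, were set beside workers of C. gestroi and C. formosanus, the 2 crosses within species. Inter-molt, pre-molt and post-molt workers of each were sampled, and the head was kept apart from the body, which here means the gutless thorax and abdomen. No treatment, transgene or age is named in the labels. They also do not say which species was the mother of either hybrid, from which colonies the workers came, or how many workers made up a sample.

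C. formosanus and C. gestroi are subterranean termites that feed on wood and have been carried by people to many warm regions, where their ranges can meet and they can interbreed. Termite workers molt repeatedly. A pulse of the steroid hormone 20-hydroxyecdysone starts the growth of a new cuticle beneath the old one, which is then shed. In hybrids many genes are transcribed at a level between the parents or close to one of them, and genes that pass both parents are called transgressive.

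The labels list 67 samples in 24 groups, but all columns of a group held identical values (0 genes differed in any group), so each group was counted as 1 profile and no spread between workers or colonies could be measured. Totals ran from 9861833 to 38338701 counts, and 3 counts, the limit that a count of 0 allows, correspond to 0.0782 to 0.304 CPM. The lowest totals, 9861833 and 10080438, were the inter-molt bodies of C. gestroi and C. formosanus, which had 1 column each. The pre-molt C. gestroi body, with 2 columns, had 19497806 counts, and the 21 groups with 3 columns had 21647794 or more. Whether each profile is a sum over its samples was not tested. Genes carry IDs without names in the deposited file, and nothing is said of their function. No source used here names the genome or annotation behind the counts, and reads of hybrids, which carry alleles of both species, may be assigned differently from those of either parent. Assignment and expression cannot be told apart here. Fewer cells of a type and less RNA per cell cannot be told apart either, since heads and bodies were sequenced whole.

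Scaling bears on which genes lie outside the parents. Over 11826 genes with a mean of at least 1 CPM, the median log2 ratio of hybrids over parents was -0.17 in pre-molt bodies and -0.21 in pre-molt heads. After TMM scaling, which corrects for a few abundant genes taking a larger share of a library, it was -0.02 and -0.01. In post-molt bodies the same median was 0.08 by column total and -0.04 by TMM. The 10 most abundant genes took 19.8% to 20.2% of the counts of hybrid pre-molt heads, against 12.2% to 13.8% in parental ones. In pre-molt bodies they took 22.1% to 23.2% in hybrids and 14.7% to 20.8% in parents. Their part in the shift was not tested.

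**Figure D1:**
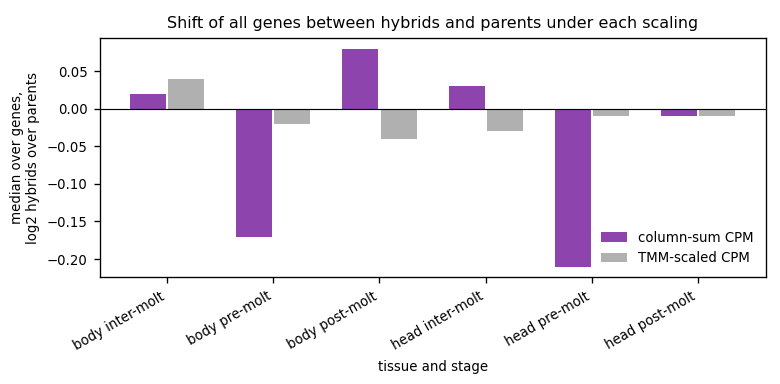
The bars give the median over 11826 genes of the log2 ratio of hybrids over parents (vertical axis) in each tissue and stage, with CPM by column total in purple and by TMM in grey. By column total the pre-molt sets lie low, at -0.17 in the body and -0.21 in the head, and by TMM they lie at -0.02 and -0.01.

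The rule was applied to 15950 genes. Within single sets, 13.7% of genes had both hybrids above both parents in pre-molt bodies, 21.6% in post-molt bodies and 11.8% in inter-molt bodies. In heads these shares were 5.30% in the pre-molt, 5.52% in the post-molt and 13.1% in the inter-molt set. Both hybrids lay below both parents in 23.8%, 6.54% and 6.25% of genes in pre-molt, post-molt and inter-molt bodies, and in 26.4%, 6.27% and 8.37% in the heads at these stages. All 6 sets together left 17 genes above (0.107%) and 24 below (0.150%). Past the threshold on the ratio were 16 above (0.100%) and 5 below (0.0313%). Just inside it lay Cfor_03638 and BGI_novel_G003345, with ratios of 1.252 and 1.258, and just outside BGI_novel_G001028 with 1.16. On the lower side Cfor_12189 and Cfor_02343 were inside with 0.795 and 0.779, and Cfor_07667 and Cfor_10936 outside with 0.809 and 0.819.

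The rule with TMM-scaled CPM gave 23 genes, 22 above and 1 below, and 15 of them were among the 21. The 16 genes above kept their side in all 6 sets in 15 cases and passed the threshold in 14. Of the 5 genes below, Cfor_04076 alone stayed below in all 6 sets, 3 did so in 5 sets and 1 in 4. Among the 21 genes, those below thus depended on the scaling far more than those above did. The genes that TMM added all stood above the parents, so the upper list changed as well.

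**Figure D2:**
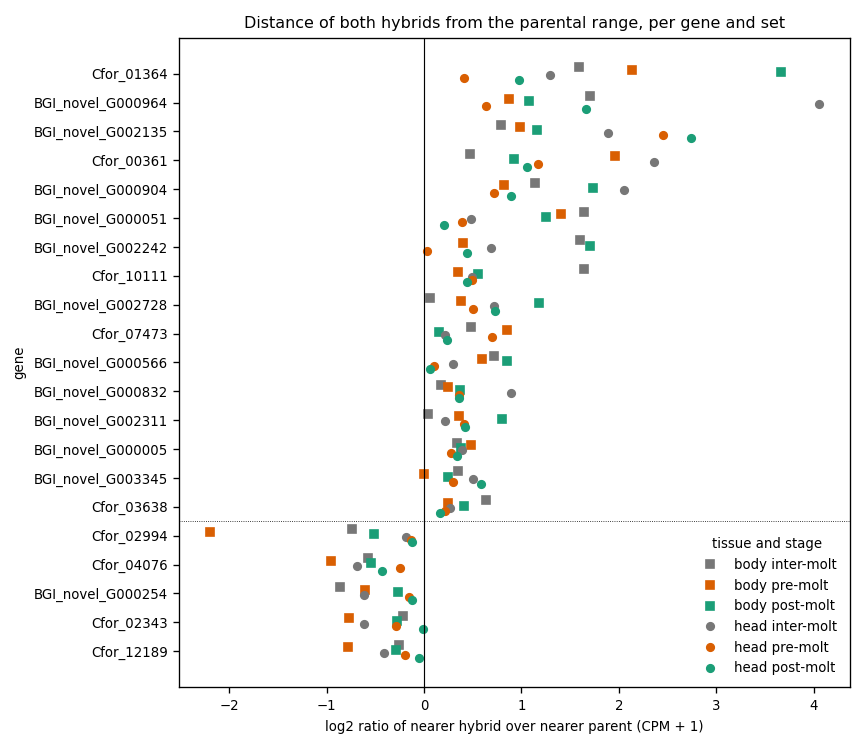
Each row is 1 of the 21 genes, and each point the log2 ratio of the nearer hybrid over the nearer parent (CPM + 1 by column total, horizontal axis) in 1 tissue and stage. All points of the upper 16 genes lie right of 0 and all points of the lower 5 left of it, as the rule requires. Cfor_01364 reaches a ratio of 12.7 in post-molt bodies and BGI_novel_G000964 16.6 in inter-molt heads.

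Among the genes above the parents, 5 had a ratio of at least 2. Cfor_01364 had the largest, 3.21. Its 12 hybrid profiles lay between 8.27 and 130 CPM with a median of 46.0, and its 12 parental profiles between 2.88 and 35.4 CPM with a median of 8.12. The distance was widest in post-molt bodies, with 62.4 CPM in Hybrid G and 55.3 CPM in Hybrid F, against 3.42 CPM in C. gestroi and 2.88 CPM in C. formosanus. In pre-molt heads it was narrowest, at 14.9 CPM in Hybrid G and 17.2 CPM in Hybrid F, against 10.9 CPM in C. gestroi and 7.12 CPM in C. formosanus. Hybrid bodies at all 3 stages thus stood above every parental body, while the ranges of hybrid and parental heads overlapped across stages.

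BGI_novel_G000964, with a ratio of 3.18, was close to absent from both species. It was counted in all 12 hybrid profiles, between 0.554 and 15.9 CPM with a median of 1.86. The parents had no count in 10 of 12 profiles, of which 9 hold NA in the table. The others were 0.303 CPM (8.73 counts) in the post-molt C. gestroi head and 0.0261 CPM (1 count) in C. formosanus bodies before the molt. Between molts the heads reached 15.9 CPM in Hybrid G and 15.6 CPM in Hybrid F. Against the limit of 3 counts per parental profile, with the hybrid level as counted, the lower of these is at least 112-fold higher. In post-molt bodies the same bound was at least 10.6-fold higher, and in inter-molt bodies at least 7.41-fold higher. It was the single gene of the whole table whose 12 hybrid profiles all stood above all 12 parental profiles (0.00627% of genes), and no gene had all 12 hybrid profiles below.

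BGI_novel_G002135, also with a ratio of 3.18, was well counted in all crosses. Hybrid profiles lay between 38.7 and 191 CPM with a median of 55.2, and parental profiles between 2.61 and 71.7 CPM with a median of 9.52. In post-molt heads it stood at 50.1 CPM in Hybrid G and 38.7 CPM in Hybrid F, against 2.61 CPM in C. gestroi and 4.95 CPM in C. formosanus. In inter-molt bodies it stood at 125 CPM in Hybrid G and 128 CPM in Hybrid F, against 10.7 CPM in C. gestroi and 71.7 CPM in C. formosanus. The nearer parent was C. formosanus in every set.

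Cfor_00361 had a ratio of 2.51. The widest distance was in inter-molt heads, with 12 CPM in Hybrid G and 21.5 CPM in Hybrid F, against 1.52 CPM in C. gestroi and 1.17 CPM in C. formosanus. The narrowest was in inter-molt bodies, where all crosses were high, at 62.2 CPM in Hybrid G, 67.1 CPM in Hybrid F, 44.3 CPM in C. gestroi and 40.3 CPM in C. formosanus. Head and body thus differed in how far apart the crosses stood at the same stage. BGI_novel_G000904 had a ratio of 2.34, with hybrids between 1.13 and 73.1 CPM (median 8.56) and parents between 0.0882 and 15.0 CPM (median 1.49). In inter-molt bodies it stood at 34.1 CPM in Hybrid G and 73.1 CPM in Hybrid F, against 13.5 CPM in C. gestroi and 15.0 CPM in C. formosanus.

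**Figure D3:**
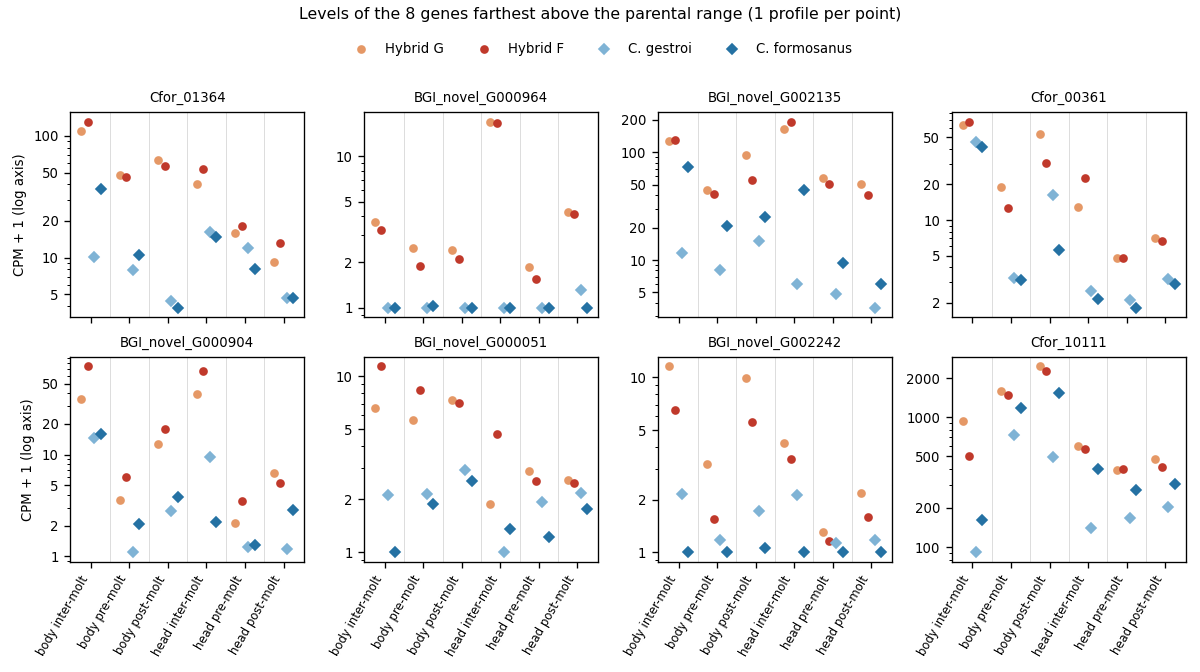
Levels of the 8 genes with the largest ratios, 1 panel each, with CPM + 1 by column total on a log axis and the 6 sets of tissue and stage along the horizontal axis. Circles are the hybrids and diamonds the parental species, 1 profile per point. In every set both circles lie above both diamonds, by the rule, and BGI_novel_G000964 has parental points at or near 1, which is no count.

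The next 3 genes had ratios between 1.58 and 1.86. BGI_novel_G000051 (1.86) was low, with hybrids between 0.893 and 10.4 CPM and parents between 0 and 1.94 CPM. Its bodies stood well apart, at 5.63 CPM in Hybrid G and 10.4 CPM in Hybrid F, against 1.13 CPM in C. gestroi and no count in C. formosanus between molts. Its heads did not: after the molt they were at 1.57 CPM in Hybrid G and 1.48 CPM in Hybrid F, against 1.16 CPM in C. gestroi and 0.763 CPM in C. formosanus, and the counting intervals of the nearer pair overlapped at all 3 stages.

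BGI_novel_G002242 (1.76) was counted in C. formosanus in 1 of 6 profiles, with 2 counts in the post-molt body. The other 5 hold NA. In post-molt bodies it stood at 8.92 CPM in Hybrid G and 4.59 CPM in Hybrid F, against 0.719 CPM in C. gestroi and 0.0565 CPM in C. formosanus. In pre-molt heads it was near the limit of detection in all crosses, at 0.305 CPM in Hybrid G and 0.165 CPM in Hybrid F, against 0.137 CPM in C. gestroi and no count in C. formosanus. Hybrid G stood above Hybrid F in all 6 sets.

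Cfor_10111 (1.58) was the most abundant of the 21, with a mean of 1006 CPM over the hybrids and 473 CPM over the parents. Hybrid profiles lay between 388 and 2465 CPM with a median of 580, and parental profiles between 89.9 and 1544 CPM with a median of 289.0. In inter-molt bodies it stood at 925 CPM in Hybrid G and 504 CPM in Hybrid F, against 89.9 CPM in C. gestroi and 160 CPM in C. formosanus. In pre-molt bodies the distance was smallest, with 1583 CPM in Hybrid G and 1489 CPM in Hybrid F, against 727 CPM in C. gestroi and 1172 CPM in C. formosanus. C. gestroi was the lower parent in all 6 sets.

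The other 8 genes above the parents had ratios between 1.252 and 1.51. In descending order these were BGI_novel_G002728, Cfor_07473, BGI_novel_G000566, BGI_novel_G000832, BGI_novel_G002311, BGI_novel_G000005, BGI_novel_G003345 and Cfor_03638. BGI_novel_G000005 was the most even of them, with set ratios between 1.21 and 1.40, hybrids at 14.0 to 28.5 CPM and parents at 8.39 to 19.6 CPM. BGI_novel_G000832 was listed at 0 in the inter-molt C. gestroi body, although the other parental profiles held 11.9 to 26.4 CPM. Hybrid G held 30.1 CPM there and C. formosanus, the nearer parent, 26.4 CPM, so that 0 does not enter its ratio. BGI_novel_G002728 lay barely outside in inter-molt bodies, with 6.69 CPM in Hybrid G and 1.84 CPM in Hybrid F, against 1.72 CPM in C. gestroi and 1.67 CPM in C. formosanus. It was inside the parental range there by TMM. BGI_novel_G003345 was all but level with the higher parent in pre-molt bodies, with 2.12 CPM in Hybrid G and 2.33 CPM in Hybrid F, against 1.09 CPM in C. gestroi and 2.12 CPM in C. formosanus.

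Cfor_07473 differed from the rest in its course over the molt. In inter-molt bodies it stood at 7.25 CPM in Hybrid G and 0.689 CPM in Hybrid F, against 0.203 CPM in C. gestroi and 0.0992 CPM in C. formosanus. In pre-molt bodies it stood at 408 CPM in Hybrid G and 276 CPM in Hybrid F, against 95.4 CPM in C. gestroi and 153 CPM in C. formosanus. The inter-molt Hybrid G body held 196 counts of this gene. No other inter-molt profile held more than 32 counts. With Hybrid F alone representing the hybrids in the inter-molt sets, an alternative chosen after the data were seen, the rule gave 29 genes. All 21 were bound to be among them, since leaving out 1 hybrid can only keep or widen the distance to the parents. Nothing is read from this about the inter-molt Hybrid G profiles.

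Below the parents, Cfor_02994 had the lowest ratio, 0.639, and its bodies stood farther from the parents than its heads at each stage. In pre-molt bodies it stood at 1.19 CPM in Hybrid G and 2.13 CPM in Hybrid F, against 18.3 CPM in C. gestroi and 13.4 CPM in C. formosanus, a set ratio of 0.218. In inter-molt bodies the hybrids differed from each other, at 17.3 CPM in Hybrid G and 92.7 CPM in Hybrid F, against 178 CPM in C. gestroi and 155 CPM in C. formosanus. In heads all crosses lay between 1.54 and 6.54 CPM, the set ratios were 0.882 to 0.916, and by TMM the pre-molt head was inside the parental range.

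Cfor_04076, with a ratio of 0.672 by column total and 0.680 by TMM, was below both parents in all sets under both scalings. Hybrid profiles lay between 4.83 and 18.6 CPM with a median of 7.29, and parental profiles between 8.58 and 30.8 CPM with a median of 12.2. In pre-molt bodies it stood at 4.83 CPM in Hybrid G and 4.98 CPM in Hybrid F, against 10.6 CPM in C. gestroi and 13.4 CPM in C. formosanus. Inter-molt heads held 16.8 CPM in Hybrid G and 18.6 CPM in Hybrid F, against 30.8 CPM in C. gestroi and 30.5 CPM in C. formosanus.

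BGI_novel_G000254 (0.738) was lowest against the parents in inter-molt bodies, at 16.1 CPM in Hybrid G and 19.4 CPM in Hybrid F, against 36.0 CPM in C. gestroi and 39.3 CPM in C. formosanus. By TMM its pre-molt head lay inside the parental range. Cfor_02343 (0.779), with the deposited length of 413 the second shortest of the 21, stood at 66.6 CPM in Hybrid G and 50.2 CPM in Hybrid F in pre-molt bodies, against 160 CPM in C. gestroi and 114 CPM in C. formosanus. Its post-molt heads were all but level with the lower parent, with a set ratio of 0.996, and inside the range by TMM. Cfor_12189 (0.795) stood at 10.6 CPM in Hybrid G and 9.74 CPM in Hybrid F in pre-molt bodies, against 33.1 CPM in C. gestroi and 19.0 CPM in C. formosanus. By TMM its pre-molt and post-molt heads lay inside the parental range.

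**Figure D4:**
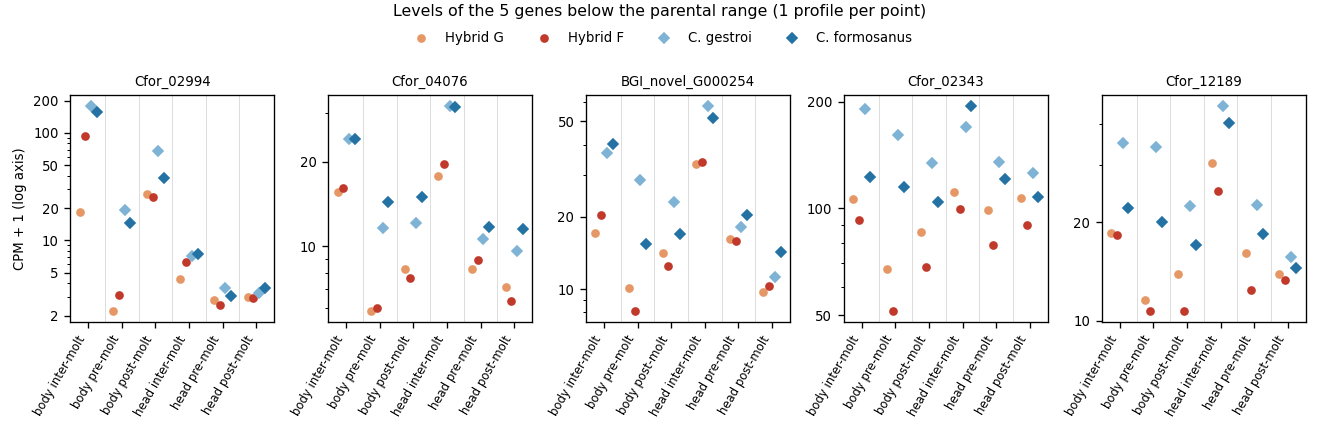
Levels of the 5 genes below the parental range, with CPM + 1 by column total on a log axis, 1 profile per point, circles for hybrids and diamonds for parental species. The distance is widest in pre-molt bodies for 4 of the 5 genes. In post-molt heads the hybrids lie close to the lower parent in 4 of them, and Cfor_02343 has a set ratio of 0.996.

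Counting precision depended on the number of counts. For each gene and set, 95% Poisson intervals of the nearer hybrid and the nearer parent were compared. They cover counting error alone, and reads without molecular identifiers are not independent molecules. The rule chose the genes on these same values, and the intervals were not computed for other genes. The counts of pairs below thus describe precision and are no test of hybrids against parents. The intervals were apart in 88 of 126 pairs. All 6 pairs were apart for 7 genes, each above the parents: Cfor_01364, BGI_novel_G000964, BGI_novel_G002135, Cfor_00361, BGI_novel_G000904, Cfor_10111 and BGI_novel_G000005. At the other end, BGI_novel_G003345 had 1 pair apart, in post-molt heads, and Cfor_03638 had 0. Overlapping intervals do not show that a difference is absent. Over all profiles together the CPM ratio of hybrids over parents was 1.53 for Cfor_03638 (95% interval 1.40 to 1.68, counting error alone). The rule had already placed both hybrids above both parents in all 6 sets, so this ratio is no separate support for a difference. Cfor_03638 rested on 32.7 to 279 counts in hybrid profiles and 8.24 to 161 counts in parental profiles. Among the 5 genes below, 1 pair was apart in pre-molt heads and 1 in post-molt heads, against 5 in pre-molt and 5 in post-molt bodies. Between molts 4 pairs were apart in heads and 4 in bodies.

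The genes varied widely in length and level. Of the 21, 12 (57.1%) carry a BGI_novel ID and 9 a Cfor ID, while 3949 of all 15950 genes (24.8%) carry a BGI_novel ID. The BGI_novel IDs were mostly on the upper side, 11 above and 1 below. Deposited lengths, whose unit is not given, ran from 364 to 8447 with a median of 2373, beside a median of 2439 over all genes. On a scale of counts per length, their mean level over all profiles ranged from the 15.8th percentile of all genes (BGI_novel_G000566) to the 98.4th (Cfor_02343). NA occurred in 2 of the 21, BGI_novel_G000964 and BGI_novel_G002242, both in parental profiles alone.

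Stage and tissue were not used to choose the genes and could be tested, with an edgeR quasi-likelihood test over all genes of a tissue that takes the 4 crosses as blocks (Benjamini-Hochberg adjusted p under 0.05, 6 residual degrees of freedom). All 21 genes were tested in every comparison. The p-values rest on how a difference recurs over the crosses that have counts, and carry no information on the spread between workers. For BGI_novel_G000964 both parents had no count in inter-molt and pre-molt heads, so its call there rests on the 2 hybrids. For BGI_novel_G002242 C. formosanus had no count in any head, nor in inter-molt and pre-molt bodies, so its calls rest almost wholly on the other 3 crosses. In heads, 11 of the 21 genes had a pre-molt level that differed from the inter-molt one, where 50.3% of all 12845 genes did. Of these, 10 were lower before the molt and 1 higher, against 25.8% and 24.4% of all genes. The median log2 fold change over the 21 was -0.64, against -0.02 over all genes. In the head after the molt 10 differed from inter-molt (48.4% of all genes), 8 lower and 2 higher, against 24.5% and 23.9%. The 10 genes lower in pre-molt heads were 6 from above the parental range and 4 from below it. In post-molt heads BGI_novel_G002242 lost its call without the inter-molt or the post-molt Hybrid F head (edgeR adjusted p up to 0.058). BGI_novel_G000904 lost its call there without the inter-molt or post-molt head of Hybrid G, Hybrid F or C. gestroi or the pre-molt head of C. gestroi or C. formosanus (up to 0.12).

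BGI_novel_G000904 showed the largest of these decreases. In pre-molt heads it stood at 1.13 CPM in Hybrid G, 2.49 in Hybrid F, 0.233 in C. gestroi and 0.295 in C. formosanus, against 38.6, 65.4, 8.56 and 1.18 CPM in inter-molt heads in the same order. Its log2 fold change was -4.11 ± 0.80 in the head (SE, edgeR adjusted p = 0.0037) and -3.73 ± 0.42 in the body (edgeR adjusted p = 0.00082). Every cross was lower before the molt than between molts in both tissues. Cfor_03638 fell in pre-molt heads to 1.92 CPM in Hybrid G, 1.41 in Hybrid F, 1.07 in C. gestroi and 1.01 in C. formosanus, against 7.10, 9.62, 5.73 and 4.59 CPM in inter-molt heads. Its log2 fold change was -1.87 ± 0.18 (edgeR adjusted p = 8.7e-05), and after the molt it was higher again, by 2.14 ± 0.18 against pre-molt heads (edgeR adjusted p = 0.00012). BGI_novel_G002242 (-2.92 ± 0.36), Cfor_02994 (-0.98 ± 0.19), Cfor_04076 (-0.97 ± 0.15), BGI_novel_G000254 (-0.91 ± 0.15), Cfor_01364 (-0.67 ± 0.15) and Cfor_12189 (-0.64 ± 0.13) fell as well on the log2 scale. BGI_novel_G000964 and BGI_novel_G002135 also passed the threshold, but not without single profiles (edgeR adjusted p up to 0.12 for the first, without any of the 4 hybrid heads at these stages or the pre-molt C. gestroi head, and 0.060 for the second without the pre-molt C. formosanus head).

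Cfor_07473 went the other way and had the largest stage difference of the 21. In pre-molt heads it held 466 CPM in Hybrid G, 485 in Hybrid F, 288 in C. gestroi and 221 in C. formosanus, against 1.39, 0.379, 0.185 and 0.141 CPM between molts. The log2 fold change was 10.04 ± 0.53 in the head (edgeR adjusted p = 6.8e-06) and 7.97 ± 0.98 in the body (edgeR adjusted p = 0.0011). After the molt it stayed high, at 10.20 ± 0.53 and 8.16 ± 1.0 above inter-molt on the log2 scale in head and body. In each cross the pre-molt and post-molt profiles stood far above the inter-molt one.

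Pre-molt bodies differed from inter-molt bodies in 9 of the 21 genes (26.5% of 13046 genes), 7 lower before the molt and 2 higher, against 11.7% and 14.8% of all genes. Besides BGI_novel_G000904 the lower ones were Cfor_02994 (log2 fold change -3.46 ± 0.52), Cfor_00361 (-2.71 ± 0.50), BGI_novel_G002242 (-2.16 ± 0.41), BGI_novel_G000566 (-1.06 ± 0.23), BGI_novel_G002135 (-0.97 ± 0.26) and Cfor_04076 (-0.78 ± 0.14). Of these, BGI_novel_G000566 lost its call without the inter-molt Hybrid F body (edgeR adjusted p = 0.054) and BGI_novel_G002135 without any of 7 single profiles (up to 0.10): the inter-molt and pre-molt bodies of Hybrid G, Hybrid F and C. formosanus and the pre-molt C. gestroi body. The 2 higher genes were Cfor_07473 and Cfor_10111, which rose by 2.53 ± 0.43 before and 2.46 ± 0.43 after the molt in the body (edgeR adjusted p = 0.0044 and 0.0064), while its head values of 0.06 and 0.30 did not pass the test. After the molt 6 differed from inter-molt in the body (20.5% of all genes), 4 lower and 2 higher, against 8.59% and 11.9%. The 2 of these 4 that held without each single profile were BGI_novel_G000904 and Cfor_04076, and the calls of Cfor_01364 and BGI_novel_G000566 (edgeR adjusted p = 0.039 and 0.040) each fell away without any of 9 of the 12 profiles (up to 0.10 and 0.14). The call of Cfor_01364 held without the inter-molt or pre-molt C. gestroi body or the post-molt Hybrid G body, and that of BGI_novel_G000566 without the inter-molt Hybrid G body or the pre-molt body of C. gestroi or C. formosanus.

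Between post-molt and pre-molt heads 5 of the 21 differed (26.4% of all genes), 3 higher and 2 lower after the molt (13.2% of all genes each way), and 3 without the pre-molt Hybrid F head. BGI_novel_G002242 lost its call there without any of the 6 hybrid heads (edgeR adjusted p up to 0.13), and BGI_novel_G000254 without the post-molt C. gestroi or the pre-molt Hybrid F head (up to 0.059). In bodies 3 differed (14.2% of all genes), all higher and 0 lower (6.46% and 7.78%), namely BGI_novel_G000904, BGI_novel_G002242 and Cfor_02994. The body count was 0 without the post-molt or the pre-molt Hybrid F body and 1 without the pre-molt Hybrid G body. BGI_novel_G000904 lost its call without any of 8 of the 12 profiles (edgeR adjusted p up to 0.091). These were the post-molt body of every cross, the pre-molt bodies of Hybrid G, Hybrid F and C. formosanus and the inter-molt Hybrid F body. DESeq2 called 5, for which no share of all genes is given here. At an unadjusted p under 0.05 by edgeR there were 5 of 21 in the body, beside 3726 of all 13046 genes.

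**Figure D5:**
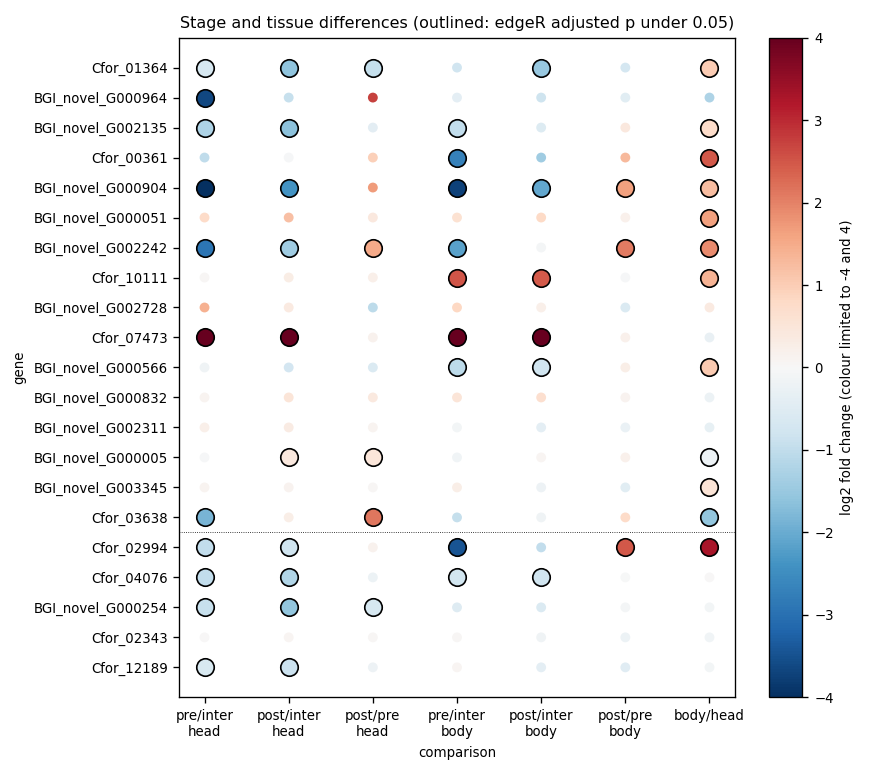
Colour gives the log2 fold change of each gene (rows) in 6 stage comparisons and in body against head (columns), red for higher in the group named first, and outlined points passed edgeR's test at an adjusted p under 0.05. Of the outlined points in the pre-molt against inter-molt columns, 10 of 11 in the head and 7 of 9 in the body are blue, and Cfor_07473 is red in both.

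Body and head were compared over all 24 profiles, with cross and stage as blocks (11 residual degrees of freedom). Of the 21 genes 12 differed (46.8% of 13025 genes), 10 higher in the body and 2 lower, against 21.8% and 25.0% of all genes, and the median log2 fold change over the 21 was 0.35 against -0.05 over all genes. On the upper side 9 were higher in the body, with Cfor_00361 leading at 2.49 ± 0.35 (SE, edgeR adjusted p = 6.8e-05), followed by BGI_novel_G002242 at 1.89 ± 0.32, BGI_novel_G000051 at 1.63 ± 0.41 and Cfor_10111 at 1.38 ± 0.37. On the lower side Cfor_02994 had the largest difference of all, 3.31 ± 0.47 (edgeR adjusted p = 6.7e-05). Its inter-molt bodies held 17.3 CPM in Hybrid G, 92.7 in Hybrid F, 178 in C. gestroi and 155 in C. formosanus, against 3.39, 5.33, 6.18 and 6.54 CPM in inter-molt heads. Cfor_03638 was lower in the body, by -1.59 ± 0.23 on the log2 scale (edgeR adjusted p = 7.3e-05). The calls of BGI_novel_G002135 (0.72 ± 0.26) and BGI_novel_G000005 (-0.21 ± 0.07) depended on single profiles. The first was lost without any of the 6 C. gestroi profiles, the 4 pre-molt and post-molt C. formosanus profiles or the post-molt head or body of Hybrid G (edgeR adjusted p up to 0.070). The second was lost without any of 11 profiles (up to 0.095), which were the post-molt head and body of Hybrid G, Hybrid F and C. gestroi, both inter-molt profiles of Hybrid F, the pre-molt head and body of C. formosanus and the inter-molt C. gestroi head. With RLE scaling BGI_novel_G000005 had an edgeR adjusted p of 0.081. By column total the crosses differed in direction for BGI_novel_G002135. Between molts Hybrid G held 162 CPM in the head and 125 CPM in the body, and Hybrid F 191 and 128 CPM. Before the molt both hybrids were again higher in the head, and after it in the body. Both parental species were higher in the body at every stage.

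The hybrids were then compared with each other and the parents with each other, with the 3 stages as blocks. The rule bears on these differences indirectly, since a gene with distant parents has a wider range to leave. Hybrid G differed from Hybrid F in 0 of the 21 genes in either tissue by edgeR and in 0 by DESeq2, where edgeR called 0.123% of all genes in the body (0.0767% higher, 0.0460% lower) and 0.148% in the head (0.0934% higher, 0.0545% lower). At an unadjusted p under 0.05 by edgeR there were 3 in the body and 3 in the head, beside 895 of all 13046 genes and 1507 of all 12845 genes. BGI_novel_G002242 had the smallest of these p in the body, at 1.39 ± 0.39 on the log2 scale (edgeR adjusted p = 0.70). C. gestroi differed from C. formosanus in 5 of the 21 in the body and 3 in the head, where 43.6% (20.5% higher, 23.0% lower) and 52.5% (24.5% higher, 28.0% lower) of all genes differed. BGI_novel_G002242 was higher in C. gestroi in both tissues (edgeR adjusted p = 0.0011 in the body and 0.00051 in the head). Its fitted fold changes are left out, since C. formosanus had 2 counts in the post-molt body and none elsewhere. Against the limit of 3 counts per profile, C. gestroi was at least 10.6-fold higher in inter-molt heads, at least 1.68-fold higher in pre-molt heads and at least 2.08-fold higher in post-molt heads. BGI_novel_G002135 was lower in C. gestroi in both tissues, by -1.51 ± 0.31 and -1.76 ± 0.41 (edgeR adjusted p = 0.0062 and 0.0078), and Cfor_10111 in the head, by -0.91 ± 0.21 (edgeR adjusted p = 0.0075). In the body Cfor_12189 and Cfor_02343 were higher in C. gestroi and BGI_novel_G000566 lower. Cfor_02343 had an edgeR adjusted p of 0.051 without the inter-molt C. formosanus body, and BGI_novel_G000566 of up to 0.063 without the post-molt body of either species.

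The distance between hybrids and parents differed in size between the stages for some genes. Set ratios of Cfor_00361 were 5.14 in inter-molt, 2.25 in pre-molt and 2.08 in post-molt heads. In its bodies they were 1.39, 3.89 and 1.9. The inter-molt set was thus its widest in the head and its narrowest in the body. In heads the set ratios of BGI_novel_G000964 were 16.6, 1.55 and 3.17 in the same order of stages. For BGI_novel_G000964 the parents had no count in 5 of 6 head profiles, so these values restate the level of the hybrids. A test of stage by hybrid status was run in each tissue over all genes, but it uses the hybrid and parental values that chose the 21 genes, and nothing is read from it for them. edgeR called 0 of the 21 and 0 of all genes in either tissue (0%), with 1 of the 21 in the body and 4 in the head at an unadjusted p under 0.05. Over all genes this level was reached by 540 of 13046 in the body and 754 of 12845 in the head.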

How the data were processed

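The authors deposited expected counts, which need not be whole, and a gene length for 67 samples of 24 groups. Bowtie2, RSEM and DESeq2 are named in the submitters' processing notes, while versions, roles, genome and annotation are not stated there. Of the values in the deposited table, 27.7% were not whole and 8.22% were NA, read as 0. No column was without a sample (0). Columns of a group were identical and counted as 1 profile, so per group there is no replicate error. Expected counts divide reads among similar genes, so genes with near copies are uncertain.

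Levels are CPM by column total, and folds with a test are TMM-scaled. Counts were rounded, filtered with filterByExpr by stage and tested with edgeR 4.0.16 in R 4.3.3 (estimateDisp, glmQLFit with robust = TRUE, glmQLFTest), over all genes. Stage, Hybrid G against Hybrid F and C. gestroi against C. formosanus were fitted on 12 profiles per tissue with cross and stage as terms, and body against head on 24 profiles with 12 cross and stage blocks. Each SE was obtained from the fold change and its quasi-likelihood F (absolute value over square root). Genes described singly were the 8 with the largest ratio above, all 5 below, those next to the threshold, and those with the largest body against head and pre-molt against inter-molt differences. Others were named to account for all 21, or for their calls. The tests were checked on simulated counts with 200 changed genes. Alternatives were RLE scaling, no filter, DESeq2 1.42.0, each profile left out, and other scalings, added values, thresholds and sets for the rule. The genes and tests were chosen with earlier results of these data known. As the IDs have no names, pathway lists and cell type markers planned for the case that names were given were not used, and head and body were not checked against markers.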

Additional observations from a re-analysis of the deposited data

Results flagged for a closer look

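In 3 cases every profile of 1 group moved one way and every profile of another the opposite way. The difference was not tested in any of them, and values are mean differences of log2(CPM + 1). BGI_novel_G002135 was higher after than before the molt in all 4 crosses in the body (0.67) and lower in all 4 in the head (-0.40), a difference of 1.07. Cfor_04076 likewise moved by 0.25 in the body and by -0.22 in the head, a difference of 0.47. Cfor_02343 was higher after than before the molt in both hybrids in both tissues (0.27) and lower in both parental species (-0.17), a difference of 0.43. These values are by column total. By TMM-scaled CPM, an alternative chosen after seeing the data, BGI_novel_G002135 still moved in opposite directions in all 4 crosses, by 0.38 in the body and -0.38 in the head. The other 2 patterns were not kept by TMM. Cfor_04076 then had a mean difference of -0.02 in the body and -0.19 in the head, and Cfor_02343 of 0 in hybrids and -0.17 in parents.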

How the results depend on the processing

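No paired analysis was possible because the columns that carry the replicate numbers of a group held identical values. The rule gave 21 genes, and 22 with 0.5 and 16 with 2 added to CPM, 23 by TMM, 19 without genes that hold NA, 41 without a minimum ratio, and 10 with a ratio of at least 1.5. With 5 sets it gave 41 genes without the pre-molt heads, 44 without the post-molt heads, 21 without the inter-molt heads, and 29, 21 and 25 without the inter-molt, pre-molt and post-molt bodies. Of the 21, 15 were kept by TMM and at least 17 with any 5 sets. With 5 sets a gene could be lost through the ratio alone, since it was on the same side in all 6. DESeq2 called 5 of the 21 in post-molt against pre-molt bodies (3 by edgeR) and 2 for stage by hybrid status in the head (0 by edgeR), a test that shares its values with the rule and supports nothing here. The cause of these differences was not tested, and no share of all genes is given for the DESeq2 counts. Leaving out single profiles gave 0 to 3 genes for post-molt against pre-molt bodies and 3 to 6 for the heads, and other counts stayed within 1.5 times. Of 64 called differences, 47 held in every such fit and 17 were lost in at least 1, with adjusted p of up to 0.14. Under RLE scaling, no filter and DESeq2, calls held in 189 of 192 cases, and without both inter-molt Hybrid G profiles, an alternative chosen after seeing the data, in 11 of 12 body against head calls. None turned round. Counting intervals overlapped in all but 88 of 126 gene and set pairs. Some of these overlaps were between all but equal levels on many counts. In post-molt heads Cfor_02343 had 3345 counts in Hybrid G and 3817 in C. formosanus, with a set ratio of 0.996.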
